A study of Mus musculus with 32 samples.

Results

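The V segments of the T-cell receptor (TCR) alpha chain were compared between sorted mouse donor T cells, before and after transfer into recipients with or without graft-versus-host disease (GVHD). They were taken as all V names in the table of TCR alpha (TRA) clonotypes other than TRAV1 and TRAV11, which gave 73 of the 75 names. No entry had a blank V name. The 73 names held 582003 of 603984 TRA reads (96.4%) over 31 libraries, and 22 of them had a mean of at least 10 reads per library and were tested. The other 51 held 0.230% of all reads and at most 0.607% of the reads of any library, and 10 of them were seen as a single read.

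The TCR alpha chain is assembled in the thymus, where one V segment is joined to one J segment, and the V segment encodes the first and second loops that contact the MHC molecule. Cells whose receptor binds MHC class II keep CD4 and cells whose receptor binds MHC class I keep CD8, so both lineages are selected from receptors built with the same V segments. The alpha locus can rearrange again on the same allele, moving from V segments close to the J cluster to distant ones. In the mouse the middle of the V array was copied, so that many segments have near-identical relatives, marked D and N in their names.

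Donor T cells came from C57Bl6 mice, from spleen and lymph nodes, and the recipients of the GVHD model were Balb/c mice, whose MHC differs. Conventional CD4 and CD8 T cells were sampled before transplantation (day 0, 2 libraries each), from syngeneic control recipients without treatment (3 each), from allogeneic recipients with untreated GVHD (4 each), and from allogeneic recipients that were also given regulatory T cells (Treg) on day 0 (Treg-treated, 4 each). Regulatory T cells themselves gave 2 libraries at day 0 and 3 in the Treg-treated arm. The sample titles place the later cells at day 6 and the series description at day 8, and the strain of the syngeneic recipients, sex and age are not given in the sources used here. The labels do not say that libraries came from separate animals, so p-values measure the spread between libraries, which may be technical.

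The TRA libraries held 6870 to 39867 reads (median 19048) in 1064 to 8363 clonotypes, a clonotype being a V segment, a J segment and the amino acids of the third loop (CDR3). PCR reads carry no molecular identifiers, so each clonotype was also counted once. Cd8a in the RNA table of the same libraries was 14160 to 61115 normalised counts in CD8 libraries and at most 59.5 in Treg libraries, and Cd4 was at most 92.8 in CD8 libraries. One CD4 library stood apart, syngeneic replicate JL019-2, with Cd4 at 1659 and Cd8a at 1956, against CD4 medians of 14778 and 39.5, and with the myeloid gene Lyz2 at 825480 against a median of 2435. The sum of 5 myeloid markers was high in all 3 CD4 syngeneic libraries, at 17070 or more, against 1880 to 2752 in the CD4 allogeneic ones. Foxp3, the defining factor of Treg, was 198 to 442 in the Treg libraries and 44.9 to 1145 in the CD4 libraries, so it did not set the Treg libraries apart. The Treg genes Ikzf2, Ctla4 and Il2ra were higher in Treg than in CD4 cells, by 3.64, 2.64 and 2.58 on the log2 scale.

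The V names were matched to the RefSeq annotation of the mouse assembly GRCm38, where the V array of the alpha locus spans chr14:52427967-53977678 and has 130 entries, 16 of them pseudogenes. The match was by name alone, so every position given here rests on the name. Of the 73 names, 52 matched a RefSeq segment. Of the 21 that did not, TRAV4 was the only one with enough reads to be tested (28959 reads), and the other 20 held 156 reads together. TRAV4 without a number after a hyphen is not a RefSeq mouse segment name, so it has no position here and its mouse gene is not known. Among RefSeq segments that are not pseudogenes, names were read for 21 of 35 D copies, 3 of 31 N copies and 26 of 46 segments without a copy letter. D copies held 53.5% ± 5.42 (SD, n = 31 libraries) of the reads and N copies 0.0712% ± 0.0213 (SD, n = 31). The D block lies at chr14:52683964-53082522 and the N block beside it at chr14:53091346-53375278. Reads of a D segment and of its N copy may not be separable, so the D and N names are uncertain as to which copy was used.

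PCR reads were concentrated in few segments, and the order of the segments given here is that of PCR reads, which differs from the order in RNA described further on. TRAV19, near the J end of the array at chr14:53845322-53845827, had the highest mean share of reads, 20.3% ± 7.06 (SD, n = 31 libraries). TRAV8D-2 at chr14:53042428-53042891 followed with 16.9% ± 8.09 (SD, n = 31) and TRAV5D-4 at chr14:53001713-53002231 with 14.1% ± 6.89 (SD, n = 31). These 3 segments made up 51.3% of reads on average, with a range of 27.9% to 61.6% over libraries. The next 7 were TRAV7-1 (7.33%), TRAV7D-3 (7.23%), TRAV7D-6 (5.23%), TRAV9D-3 (5.02%), TRAV4 (5.01%), TRAV7-6 (4.50%) and TRAV13D-2 (3.02%), and the leading 10 together held 84.8% to 92.5% of each library. With each clonotype counted once the leading 3 fell to 37.0% and the leading 10 to 75.7% on average. Over the 22 tested segments reads per clonotype ran from 7.76 for TRAV8D-2 and 7.61 for TRAV19 to 1.08 for TRAV13N-1.

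CD4 and CD8 cells differed in the shares of many V segments. Of the 22 segments tested, 4 had a higher and 7 a lower share of reads in CD8 than in CD4 cells (edgeR quasi-likelihood test, mean over the 4 arms, Benjamini-Hochberg adjusted p under 0.05). The fit held 24 names, since TRAV1 and TRAV11 stayed in it, and 54.2% of them were called, so the members' count is close to that of the whole fit. Shares of one library add up to a constant, so a rise in one segment lowers the others. All 11 were also called, in the same direction, when each clonotype was counted once, and that count called 15 segments, 6 higher and 9 lower, with 66.7% of the fit called.

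The segments with lower shares in CD8 cells included all 3 tested members of the TRAV14 family. TRAV14-3, at chr14:53763196-53763694, was 0.827% to 1.93% of reads in the 13 CD4 libraries (median 1.23%). In the 13 CD8 libraries it was 0.0466% to 0.503% (median 0.264%). The 2 ranges did not overlap, and the log2 change was -1.99 (SE 0.306, edgeR adjusted p 9.64e-07). TRAV14D-3/DV8, at chr14:53078547-53079045, can also be joined in TCR delta chains, as its name states. Its share was 0.959% to 2.20% in CD4 (median 1.56%) and 0.0746% to 0.850% in CD8 libraries (median 0.495%), again without overlap, with a log2 change of -1.46 (SE 0.221, edgeR adjusted p 9.27e-07). TRAV14-2, at chr14:53640775-53641225, was 0.970% to 1.76% in CD4 (median 1.41%) and 0.164% to 0.799% in CD8 libraries (median 0.696%), with a log2 change of -1.04 (SE 0.213, edgeR adjusted p 7.04e-05).

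TRAV5D-4 was the abundant segment with the largest shift towards CD4 cells. It was 15.4% to 30.9% of reads in CD4 libraries (median 19.1%) and 1.88% to 11.4% in CD8 libraries (median 7.21%). Every CD4 library was above every CD8 library, and the log2 change was -1.39 (SE 0.199, edgeR adjusted p 3.75e-07). TRAV4-2, at chr14:53418388-53418873, had the largest fold change of all tested segments. It was 0.508% to 0.886% in CD4 libraries (median 0.575%) and at most 0.378% in CD8 libraries (median 0.123%), a log2 change of -2.31 (SE 0.356, edgeR adjusted p 9.64e-07). In CD8 Treg-treated replicate JL027-1 it had 0 of 10731 reads, which allows a share of up to 0.0280% for counting error alone. TRAV7D-2, at chr14:52683964-52684472, was 0.787% to 1.23% in CD4 and 0.209% to 0.546% in CD8 libraries, with a log2 change of -1.31 (SE 0.186, edgeR adjusted p 3.75e-07). TRAV7D-6, at chr14:53020459-53020991, was also lower in CD8 cells, with a log2 change of -1.14 (SE 0.182, edgeR adjusted p 1.56e-06), and its ranges overlapped when all arms were pooled but in no single arm.

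The 4 segments with higher shares in CD8 cells included TRAV4 and TRAV8D-2. TRAV4 was 1.44% to 4.57% of reads in CD4 libraries (median 2.39%) and 4.83% to 17.2% in CD8 libraries (median 7.94%). No CD4 library reached the lowest CD8 library, and the log2 change was 1.51 (SE 0.212, edgeR adjusted p 3.75e-07). TRAV8D-2 was 6.61% to 14.1% in CD4 libraries (median 10.7%) and 8.73% to 40.5% in CD8 libraries (median 24.3%). Its ranges overlapped in the Treg-treated arm only, and the CD8 library was the higher one in 13 of 13 pairs that share a prefix, arm and number. The log2 change of TRAV8D-2 was 1.13 (SE 0.184, edgeR adjusted p 1.81e-06). TRAV16, at chr14:53743174-53743705, was rare in this table, with 2 to 9 reads per CD4 library and 6 to 74 per CD8 library. It made up 0.0121% to 0.0412% of CD4 and 0.0369% to 0.205% of CD8 reads, a log2 change of 1.75 (SE 0.234, edgeR adjusted p 3.75e-07). TRAV16 passed the filter of a mean of 10 reads only through its CD8 libraries, so its entry into the test was not independent of the direction called. TRAV7D-3 had a smaller log2 change of 0.55 (SE 0.209, edgeR adjusted p 0.0250), with overlap in 2 of the 4 arms. Its call was lost in 7 of 38 alternative settings, the most of the 11 calls.

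**Figure D1:**
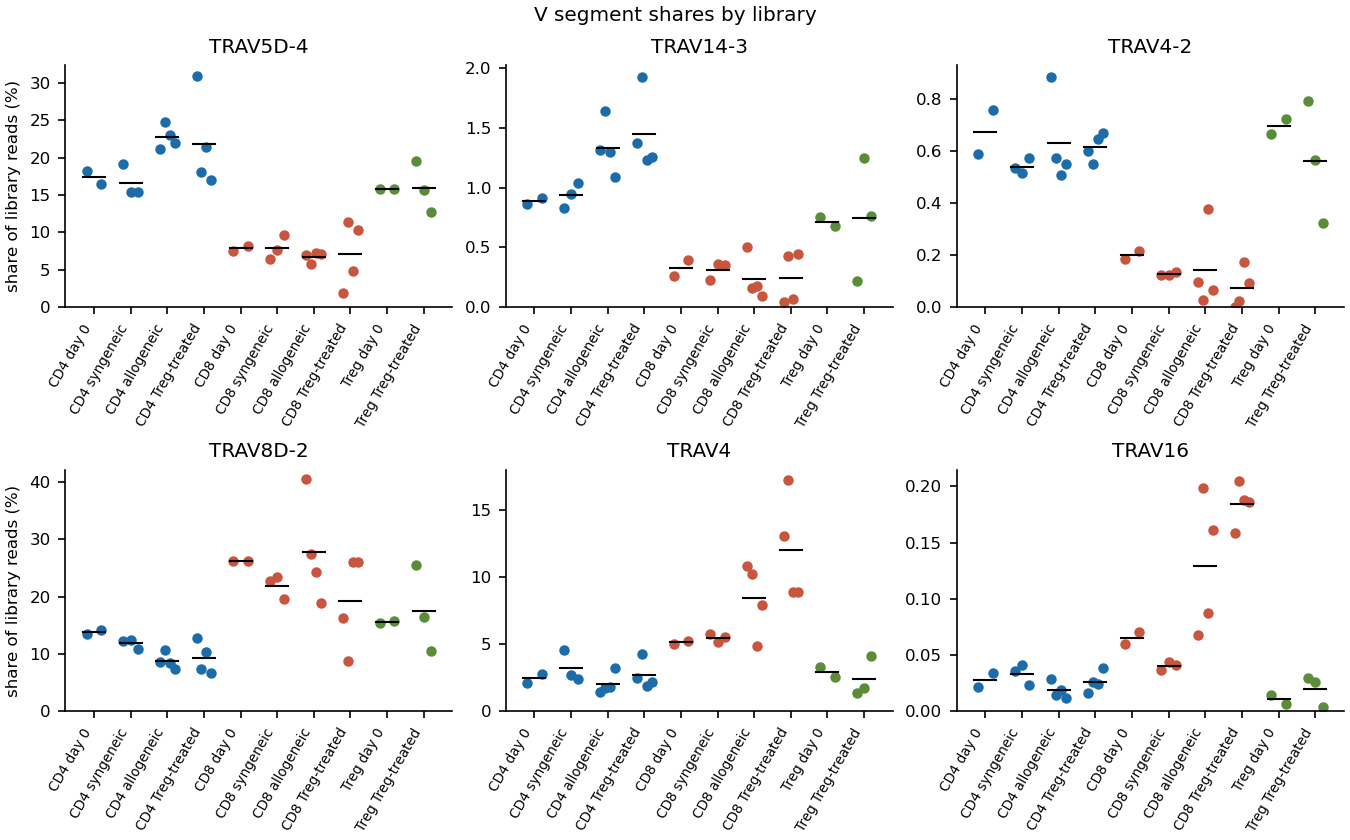
Share of TRA reads (%) of 6 V segments in each of the 31 libraries, by cell type and arm. Points are libraries and lines are group means. TRAV5D-4, TRAV14-3 and TRAV4-2 sit lower in all CD8 libraries than in all CD4 libraries, TRAV4 sits higher, and TRAV8D-2 and TRAV16 overlap in part.

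Members of one family did not all move the same way. Within the TRAV7 family TRAV7D-3 rose in CD8 cells, TRAV7D-2 and TRAV7D-6 fell, and TRAV7-1 (log2 change -0.29, SE 0.291) and TRAV7-6 (-0.46, SE 0.210) did not pass the test in reads. Both were lower with clonotypes counted once, at -0.25 each (edgeR adjusted p 0.0465 and 0.0322). With reads pooled by family, 6 of the 10 families tested were called, where 66.7% of the 12 in that fit were: TRAV4, TRAV8 and TRAV16 higher, and TRAV5, TRAV7 and TRAV14 lower. The call of family TRAV4 is carried by the name TRAV4, whose mouse gene is not known, and the Trav4 rows of the RNA table went the other way, as given further on. TRAV19, the segment with the most PCR reads, had a log2 change of -0.05 (SE 0.229) in reads and 0.13 in clonotypes, and neither passed the test. This mean covers arms of opposite sign, since the share of TRAV19 was higher in CD8 cells without overlap at day 0 and in syngeneic recipients, and overlapped in the other arms. Its log2 change in clonotypes was 0.59 at day 0 (edgeR adjusted p 0.0380), 0.47 in syngeneic (edgeR adjusted p 0.0323), -0.37 in allogeneic (edgeR adjusted p 0.0664) and -0.17 in Treg-treated recipients (edgeR adjusted p 0.416). TRAV13D-2 was not called from reads (0.14, SE 0.232) but was from clonotypes (0.46, SE 0.102, edgeR adjusted p 2.51e-05), where the CD8 library was higher in 13 of 13 pairs.

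**Figure D2:**
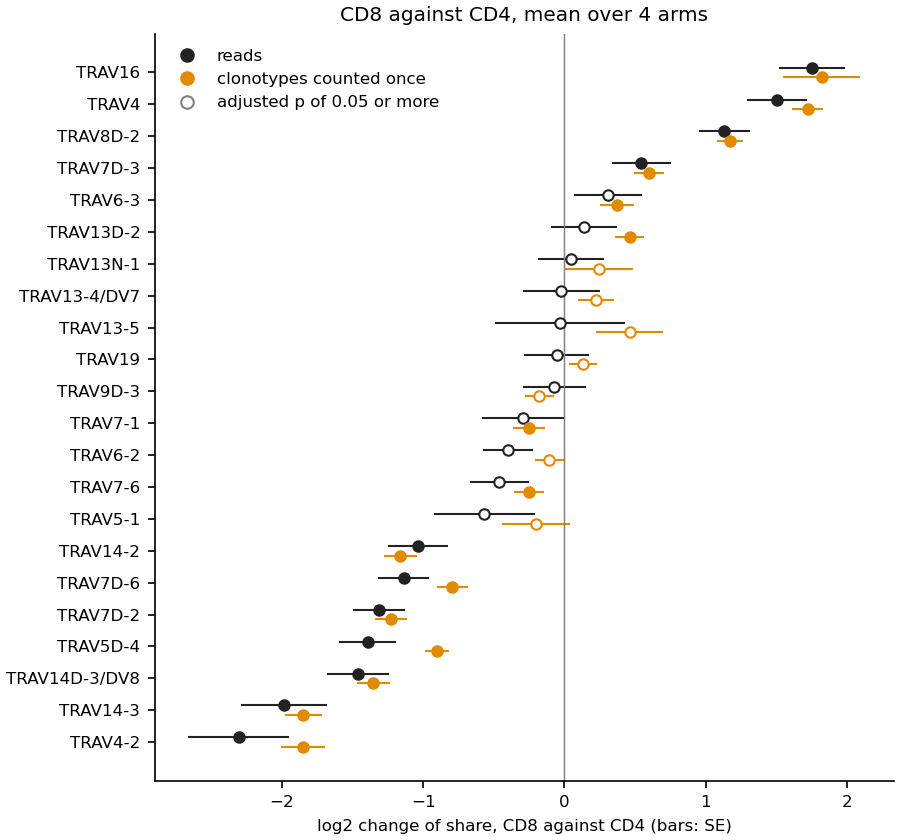
Log2 change of the share of each of the 22 tested V segments in CD8 against CD4 cells, with the SE, from reads (black) and from clonotypes counted once (orange). Filled points passed the test. The 7 segments lowest in CD8 cells and the 4 highest, by reads, passed with both counts.

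The same comparison was made within each arm. In clonotypes it called 10 segments at day 0, 12 in syngeneic, 12 in allogeneic and 13 in Treg-treated recipients, where 41.7%, 58.3%, 54.2% and 58.3% of the names were called. In reads the spread estimated over all 10 groups was larger, though not in each group (common dispersion 0.16, against 0.0232 in clonotypes). The same tests called 0, 2, 11 and 11 in reads, against 0.0%, 12.5%, 50.0% and 50.0% of the names, with 7 at an unadjusted p under 0.05 at day 0. The log2 change of TRAV14-3 in reads was -1.43 at day 0, -1.58 in syngeneic, -2.46 in allogeneic and -2.48 in Treg-treated recipients. That of TRAV4 was 1.06, 0.77, 2.04 and 2.16, and that of TRAV16 was 1.20, 0.29, 2.72 and 2.80. Of these differences between arms only allogeneic against syngeneic was tested, as given further on.

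The V profiles grouped by cell type. When the profile of each of the 26 CD4 and CD8 libraries was set against the mean profiles of the other libraries of its arm, 26 of 26 lay nearer to their own cell type, both by reads and by clonotypes. The distance is the sum of absolute differences of shares divided by 2, in percentage points. The narrowest case was CD8 Treg-treated replicate JL027-2, at 38.01 from the CD8 and 38.07 from the CD4 mean by reads, but at 15.9 and 25.6 by clonotypes. CD4 syngeneic replicate JL019-2, whose RNA stood apart, lay at 7.51 from the CD4 and 19.8 from the CD8 mean, and the test called 11 segments without it as with it. Replicates of one group were nearly alike at day 0, with distances of 3.21 to 4.13, and differed most in CD8 Treg-treated recipients, with a median of 32.5 and a range of 14.5 to 48.2.

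The RNA libraries were made from full-length cDNA without a PCR of TCR chains and gave a second reading of these segments. The RNA table has 108 Trav rows, 106 without Trav1 and Trav11, and limma on log2(value + 1) called 44 of them between CD8 and CD4 cells, 13 higher and 31 lower. Of 16741 genes 18.3% were called. The share of Trav rows that were higher is near the 10% of all genes that were, and 8.22% of all genes were lower. The median log2 change was -0.46 over the 106 Trav rows and -0.01 over all genes. In bulk RNA, fewer cells that use a segment and less RNA per cell cannot be told apart. D and N copies are not independent here, since 30 of the 106 rows have values equal to another row in every library, and with 1 row kept of each such set 12 were higher and 26 lower of 91. Of the 16 segments named here, 14 have an RNA row, and TRAV4 and TRAV7D-6 do not. Of the 9 called from reads that have a row, 8 were called in RNA, and all 8 in the same direction. The ninth was TRAV7D-3, at 0.26 (SE 0.293).

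Over the 14 segments the sign of the change was the same in RNA and PCR reads for 12. Trav16 changed by 2.07 (SE 0.193, limma adjusted p 5.15e-09), against 1.75 in PCR reads. Trav14-3 changed by -1.85 (SE 0.252, limma adjusted p 3.46e-06), against -1.99. Trav5d-4 changed by -1.32 (SE 0.222, limma adjusted p 6.72e-05), against -1.39. By limma all 9 Trav14 rows were lower and all 3 Trav16 rows higher in CD8 cells, where 8.22% of all genes were lower and 10% higher. Rows of a family are not independent. The family sum changed by -1.19 for TRAV14 (SE 0.179, limma adjusted p 1.46e-05) and by 1.865 for TRAV16 (SE 0.187, limma adjusted p 2.00e-08). Trav9d-3 and Trav13d-2 differed between the assays. Trav9d-3 rose by 1.62 in RNA (SE 0.209, limma adjusted p 1.39e-06) while its PCR share changed by -0.07 (SE 0.223). Trav13d-2 changed by -0.90 in RNA (SE 0.276, limma adjusted p 0.0224) and by 0.14 in PCR reads.

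How much of the repertoire each family made up differed widely between the 2 assays. RNA values were divided by the RefSeq span of each row in kb and expressed as a percent of the summed Trav signal per kb, without TRAV1 and TRAV11 rows, and PCR shares here are percent of member reads. TRAV19 held 21.1% ± 7.25 (SD, n = 31) of PCR reads and 0.908% ± 0.344 (SD, n = 31) of the RNA signal, 23.2-fold more in PCR. TRAV8 held 17.7% and 3.61%, and TRAV5 held 14.7% and 3.44%. TRAV14 held 2.82% of PCR reads and 16.3% of the RNA signal. The families TRAV12, TRAV3, TRAV16 and TRAV10 had 10.7%, 7.65%, 5.89% and 3.46% of the RNA signal but 0.0236%, 0.000712%, 0.0775% and 0.00549% of the PCR reads. Across the 18 families with RNA rows, the Spearman correlation of the 2 shares within a library ran from 0.20 to 0.58 (median 0.46), as a description over families, which are not independent. A rank of segments by PCR share is thus a rank within the PCR table. The part of the PCR primers in these ratios was not tested.

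**Figure D3:**
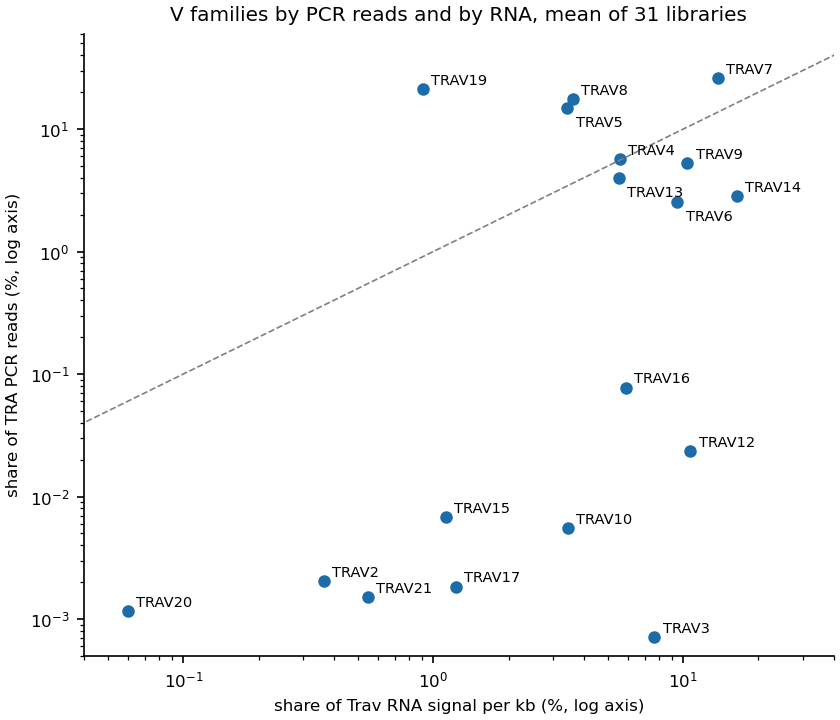
Mean share of each V family over 31 libraries in TRA PCR reads (vertical) against the RNA signal per kb (horizontal), both in percent on log axes, with the line of equality. TRAV19 lies 23.2-fold above the line, and TRAV3, TRAV10 and TRAV12 lie far below it.

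TRAV12, nearly absent from the PCR table, also differed between the lineages in RNA. TRAV12 was 16.8% ± 2.45 and 18.0% ± 1.74 (SD, n = 4 each) of the Trav RNA signal in CD8 Treg-treated and allogeneic libraries, and 6.51% ± 1.26 and 7.73% ± 0.623 (SD, n = 4 each) in CD4 libraries of the same arms. At day 0 TRAV12 was 13.3% ± 0.464 in CD8 and 7.60% ± 0.192 (SD, n = 2 each) in CD4 cells. Of its 8 rows 3 were higher in CD8 cells and none lower by limma, where 10% of all genes were higher and 8.22% lower. The Trav4 rows went against the PCR name TRAV4: of 7 rows, 4 were lower in CD8 cells and none higher, against the same shares of all genes, and the log2 change of the family sum was -1.28 (limma adjusted p 3.95e-06, SE 0.177), whereas the pooled PCR reads of family TRAV4 rose. The RNA row that matches the PCR name TRAV4 is not known.

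Treg were compared with CD4 cells over the 2 arms that have Treg libraries. Of the 22 segments none was called from reads by edgeR, with 0 at an unadjusted p under 0.05, where 4.17% of the fit was called. DESeq2 called 0 as well, and this does not show that the cell types use the segments alike. TRAV5D-4 was 15.8% and 15.9% of reads in the day 0 Treg libraries and 12.7%, 15.7% and 19.6% in those after transplantation, above every CD8 library. TRAV16 was at most 0.0297% in the 5 Treg libraries, below every CD8 library, but rested on 1 to 10 reads per Treg library. These segments are examples, and Treg were not tested against CD8 cells. In Treg-treated recipients family TRAV8 was 10.8% to 26.7% of member reads in Treg and 9.50% to 28.1% in CD8 libraries. Family TRAV14 was 1.06% to 3.55% in Treg and 0.699% to 1.92% in CD8 libraries, so both families overlapped. With clonotypes counted once 2 segments were called, both of the TRAV14 family and both lower in Treg, where 12.5% of the fit was called. TRAV14-3 had a log2 change of -0.55 (SE 0.180, edgeR adjusted p 0.0418) and TRAV14D-3/DV8 of -0.48 (SE 0.168, edgeR adjusted p 0.0421). In Treg-treated recipients alone 5 were called, 4 lower and 1 higher, where 25.0% were: TRAV14-2, TRAV14-3, TRAV14D-3/DV8 and TRAV19 lower and TRAV8D-2 higher. At day 0 alone clonotypes gave 0 calls (0.0% of the fit), with 0 at an unadjusted p under 0.05. There TRAV14-3 held 1.94% and 1.67% of clonotypes in Treg and 1.93% and 1.97% in CD4 libraries. In Treg-treated recipients it held 0.911% (JL027), 2.00% and 1.92% in Treg and 2.52% to 4.21% in CD4 libraries. The RNA table called 3 of 106 Trav rows lower and none higher in Treg, and all 3 were Trav14 rows. Of all genes 14.2% were called, 6.99% lower and 7.25% higher. The number was 1 without Treg day 0 replicate JL027 or CD4 day 0 replicate JL019. In Treg-treated recipients the TRAV14 family held 11.7% ± 2.65 of the Trav RNA signal in Treg (SD, n = 3) against 20.3% ± 1.15 in CD4 cells (SD, n = 4). At day 0 the values were 17.5% ± 0.406 and 23.5% ± 0.481 (SD, n = 2 each).

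Allogeneic recipients were compared with syngeneic ones, whose donor cells meet no foreign MHC. In CD4 cells no segment was called from reads by edgeR, with 1 at an unadjusted p under 0.05, where 4.17% of the fit was called. DESeq2 called 0 too, and 0 were called with clonotypes counted once. The part of the myeloid RNA of the CD4 syngeneic libraries, given above, in the comparison of these arms was not tested. In CD8 cells only TRAV16 was called from reads, and again 4.17% of the fit. It was 0.0676%, 0.0873%, 0.162% and 0.199% in the allogeneic libraries and 0.0369%, 0.0413% and 0.0435% in the syngeneic ones. Every allogeneic library was higher, and the log2 change was 1.65 (SE 0.411, edgeR adjusted p 0.00824). TRAV16 passed the filter only through CD8 libraries, with up to 28 reads in allogeneic, 74 in Treg-treated and 12 in syngeneic recipients. Its entry into the test was thus not independent of the high counts. The call rested on 6 to 28 reads per allogeneic library. It was lost without CD8 allogeneic replicate JL027-2 or CD8 syngeneic replicate JL019-1, and with only the groups compared. The number was 3, 2 higher and 1 lower, when allogeneic replicate JL019-1 of the CD8 cells was left out, and 2, both higher, when JL019-2 was. TRAV16 held 0.769% ± 0.270 of the clonotypes in allogeneic libraries (SD, n = 4) and 0.137% ± 0.00668 in syngeneic ones (SD, n = 3). The log2 change in clonotypes was 2.46 (SE 0.428, edgeR adjusted p 1.60e-06). It rests on 6 to 20 TRAV16 clonotypes per allogeneic and 8 to 12 per syngeneic library. The total was 1134 to 2580 clonotypes in allogeneic and 6024 to 8270 in syngeneic libraries, so the share rose while the number of TRAV16 clonotypes overlapped. The Trav16 row of the RNA table changed by 0.29 (SE 0.360) and did not pass the test, while as a share of the Trav RNA signal the TRAV16 family was 12.1% ± 1.49 (SD, n = 4) in CD8 allogeneic and 5.84% ± 0.291 (SD, n = 3) in CD8 syngeneic libraries.

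Counted as clonotypes, 4 segments were called between CD8 allogeneic and syngeneic cells, 3 higher and 1 lower, where 16.7% of the fit was called. Beside TRAV16 these were TRAV6-3 (log2 change 0.87, SE 0.224), TRAV4 (0.58, SE 0.194) and, lower, TRAV19 (-0.67, SE 0.190). TRAV19 was 28.3% to 30.1% of reads in the 3 CD8 syngeneic libraries. In the allogeneic libraries it was 4.82% and 6.84% with the title prefix JL027 and 16.5% and 26.9% with the prefix JL019, all below the syngeneic range. TRAV4 in the same libraries was 10.8% and 10.3% (JL027) and 7.94% and 4.83% (JL019), against 5.19% to 5.78% in the syngeneic ones, so both segments split by the prefix, and the JL019 libraries lay nearer to the syngeneic ones. The sources used here do not say what the prefix stands for. The syngeneic libraries are 2 of JL019 and 1 of JL027, and the fit has no term for the prefix. With the prefix added as a term TRAV16 was again the only call in reads (log2 change 1.64, edgeR adjusted p 0.0123). The change of TRAV19 in reads was -1.09 (SE 0.425), which did not pass (edgeR adjusted p 0.0928). The difference of the CD8 against CD4 change between allogeneic and syngeneic recipients was called in reads for TRAV16 alone (4.17% of the fit). It was 2.43 on the log2 scale (SE 0.635, edgeR adjusted p 0.0141). TRAV16 had 2 to 5 reads per CD4 allogeneic and 5 to 9 per CD4 syngeneic library, so it entered the test only through its CD8 counts. In clonotypes the difference was called for TRAV16, TRAV6-3, TRAV4 and TRAV19 (16.7% of the fit). In RNA the difference for the TRAV16 family was 0.41 (SE 0.495, limma adjusted p 0.788). limma called 4 of 106 Trav rows in this difference, all lower, where 4.65% of all genes were called and 1.96% lower, with Trav19 at -2.50 (SE 0.601, limma adjusted p 0.0124). The reads call was lost without CD8 allogeneic replicate JL027-2, CD4 syngeneic replicate JL019-1 or CD4 syngeneic replicate JL019-2, and with DESeq2. It was also lost with a replicate block, as given in the closing section on processing. Leaving out allogeneic libraries gave 3 calls for CD8 replicate JL019-1, and 2 for CD8 replicate JL019-2 or CD4 replicate JL027-2. With reads pooled by family 2 of 10 families were called between CD8 allogeneic and syngeneic cells, both higher, where 25.0% of the 12 were.

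In RNA, limma called 29 of 106 Trav rows lower and none higher in CD8 allogeneic than in CD8 syngeneic cells, where 21.1% of all genes were called, 10.7% lower and 10.4% higher. The median change was -0.89 over the Trav rows and 0.02 over all genes, and 98 of 106 rows were below 0. All 3 Trav16 rows were above 0, and none was called. Of 4 summed lists of markers of other cell types 3 were lower in the same comparison, without overlap. The sum of 3 NK cell markers was 1501 to 1887 in CD8 allogeneic and 5156 to 5695 in CD8 syngeneic libraries, that of 5 myeloid markers 3187 to 3681 and 10956 to 14732, and that of 4 B cell markers 8982 to 11323 and 19423 to 26678. The sum of 4 gamma-delta T cell markers overlapped, at 843 to 1114 and 910 to 1706. Each of the 3 lower sums is mostly 1 gene in the syngeneic libraries, namely Eomes, which CD8 T cells also express, Lyz2 and Ighm. None of these markers was at 0 in the CD8 libraries of the 2 arms, and the myeloid markers Itgam and Fcer1g were higher in all 4 allogeneic libraries. Their part in the Trav result was not tested. All 9 Trav14 rows were among those called, as was Trav19 (log2 change -2.08, SE 0.425, limma adjusted p 0.000626). The constant region Trac, which every alpha chain shares, had values of 23396 ± 3934 (SD, n = 4) and 36536 ± 12277 (SD, n = 3) normalised counts in the 2 groups. The sum of the Trav rows over Trac was 0.426 ± 0.0219 (SD, n = 4) and 0.456 ± 0.0164 (SD, n = 3). The count fell to 6 without CD8 syngeneic replicate JL027, whose Trac of 50104 was the highest of the CD8 libraries, and to 19 without CD8 allogeneic replicate JL027-2. As a share of the Trav signal, TRAV14 was 7.62% ± 1.02 (SD, n = 4) in CD8 allogeneic and 19.4% ± 1.31 (SD, n = 3) in CD8 syngeneic libraries, with 16.7% ± 0.271 (SD, n = 2) at day 0. In CD4 cells 2 Trav rows were lower and none higher, where 14.6% of all genes were called, 7.91% lower and 6.69% higher. The number was 0 without any one of the 4 allogeneic libraries, 1 without syngeneic replicate JL027 and 3 without syngeneic replicate JL019-2.

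Other genes of the receptor were read from a list of 15, of which 14 (all but Rag1) are in the RNA table. It holds the constant regions, the CD3 chains, the recombination genes and the gamma-delta chains. Between CD8 and CD4 cells 1 was higher and 2 lower, a share near the 18.3% of all genes called. Trgc2, a gamma constant region, changed by 0.75, Trgc1 by -0.86, and Dntt, which adds bases at the V-J joint, by -1.39 on the log2 scale. Trac (-0.24) and the CD3 chains did not pass the test. Between CD8 allogeneic and syngeneic cells 4 of 14 were lower and none higher, where 10.7% of all genes were lower and 10.4% higher, namely Dntt at -6.15, Trgc4 at -1.57, Trdc at -1.50 and Trgc1 at -1.40. Between CD4 allogeneic and syngeneic cells Dntt (-7.65) and Trgc1 (-1.25) were lower and Trgc2 (1.95) higher, where 14.6% of all genes were called. In Treg against CD4 cells 4 were lower and none higher, Trgc4 (-3.35), Trgc2 (-2.52), Dntt (-2.20) and Trgc1 (-1.73), where 6.99% of all genes were lower. In Treg-treated against allogeneic CD4 cells 4 were higher and none lower, Cd3g (1.00), Trbc2 (0.95), Cd3d (0.83) and Trbc1 (0.76), where 10.7% of all genes were higher. In CD8 cells none was called in that comparison (0.0657% of all genes), and in Treg after transplantation against day 0 Dntt (-4.54) and Trgc4 (-3.18) were lower (4.89% of all genes).

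Treg treatment was compared with untreated GVHD. No V segment was called in CD4 or in CD8 cells from reads by edgeR, where 0.0% of the fit was called in both, with 0 and 1 at an unadjusted p under 0.05. DESeq2 and the count of clonotypes called 0 in both. With reads pooled by family 1 of 10 was called in CD8 cells, lower, where 8.33% were. Without CD8 Treg-treated replicate JL019-2 the number in CD8 cells was 2, both lower. The libraries of the CD8 arms varied so much among themselves that most shares had wide ranges: TRAV7-1 was 2.24% to 17.8% in CD8 Treg-treated and 1.85% to 13.1% in CD8 allogeneic libraries, against 3.70% to 4.49% in CD8 syngeneic ones. TRAV16 was 0.158% to 0.205% in CD8 Treg-treated libraries, which overlaps the allogeneic range. In RNA no Trav row was called by limma in CD4 (22.2% of all genes) or CD8 cells (0.0657%), with 8 and 10 at an unadjusted p under 0.05. Treg after transplantation against day 0 gave no call from reads by edgeR or DESeq2, with 0.0% of the fit called and 0 at an unadjusted p under 0.05. It gave 1 call from clonotypes, TRAV13-4/DV7, at 1.08 (SE 0.289, edgeR adjusted p 0.00659; 4.17% of the fit). In RNA 2 of 106 Trav rows were higher after transplantation and none lower by limma, Trav7-3 at 1.70 (SE 0.452) and Trav5-1 at 1.53 (SE 0.513), where 13.3% of all genes were called and 8.43% higher.

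Single clonotypes made up much of a segment's reads in several libraries. In CD8 allogeneic replicate JL027-1, where TRAV8D-2 reached 40.5% of reads, 1 clonotype held 18.1% of the library and 44.7% of its TRAV8D-2 reads. In CD8 Treg-treated replicate JL027-1 the leading clonotype held 19.7% of the library and 71.7% of its TRAV19 reads. In CD8 Treg-treated replicate JL027-2 the leading clonotype held 14.4% and 81.2% of its TRAV7-1 reads. In CD4 Treg-treated replicate JL027-1 it held 14.5% and 46.8% of the TRAV5D-4 reads. All 3 Treg libraries of Treg-treated recipients were of this kind, with leading clonotypes of 10.9%, 16.6% and 12.3% of reads in TRAV8D-2, TRAV7-1 and TRAV19. In the CD8 and Treg libraries of day 0 and the CD8 syngeneic libraries the leading clonotype, of TRAV19, held 0.652% to 1.44% of reads. In CD4 cells it was larger in syngeneic recipients too, with 5.72% of reads and 60.3% of the TRAV13D-2 reads in replicate JL027 and 2.68% of reads, of TRAV7-6, in replicate JL019-1. In the CD4 libraries of day 0 it was of TRAV11, outside the 73 members, with 2.91% and 2.86% of reads and 72.3% and 69.6% of the TRAV11 reads, and in CD4 syngeneic replicate JL019-2 it was also of TRAV11, with 1.66% of reads and 60.05% of the TRAV11 reads. With the leading clonotype of each library left out the CD8 against CD4 test called 12 segments.

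How evenly the segments were used was measured as the effective number of V segments, the exponential of the Shannon entropy of the shares of member reads, which equals the number of segments if all were used alike. It was 8.65 ± 0.329 in CD8 and 11.0 ± 0.495 in CD4 cells at day 0 (SD, n = 2 each). It was 8.97 ± 0.315 and 11.2 ± 0.107 in syngeneic recipients (SD, n = 3 each), and in both arms every CD8 library lay below every CD4 library, a difference that was not tested. CD4 cells had 10.3 ± 0.246 in allogeneic recipients (SD, n = 4), 0.948 below the syngeneic mean, with every allogeneic library below every syngeneic one. The two-sided exact permutation test gave p = 0.057, the smallest that 4 against 3 libraries allow, and 0.229 after Benjamini-Hochberg adjustment over 4 tests. CD8 cells had 9.35 ± 1.01 (SD, n = 4) in allogeneic recipients, 0.374 above the syngeneic mean (exact permutation p = 0.571). In clonotypes the 4 CD8 allogeneic libraries lay above all 3 syngeneic ones, at 15.2 ± 0.787 (SD, n = 4) against 13.9 ± 0.0837 (SD, n = 3), a difference of 1.27 (exact permutation p = 0.057, the smallest that 4 against 3 allow). The CD4 groups overlapped in clonotypes, and the allogeneic mean differed from the syngeneic one by -0.411 (exact permutation p = 0.114). Treg-treated recipients differed from allogeneic ones by 0.525 in CD4 (exact permutation p = 0.429) and -0.380 in CD8 cells (exact permutation p = 0.657), where 0.0286 is the smallest p. Over all groups the numbers in clonotypes were higher, from 13.3 ± 0.142 in CD8 cells at day 0 (SD, n = 2) to 16.0 ± 0.719 in Treg after transplantation (SD, n = 3).

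**Figure D4:**
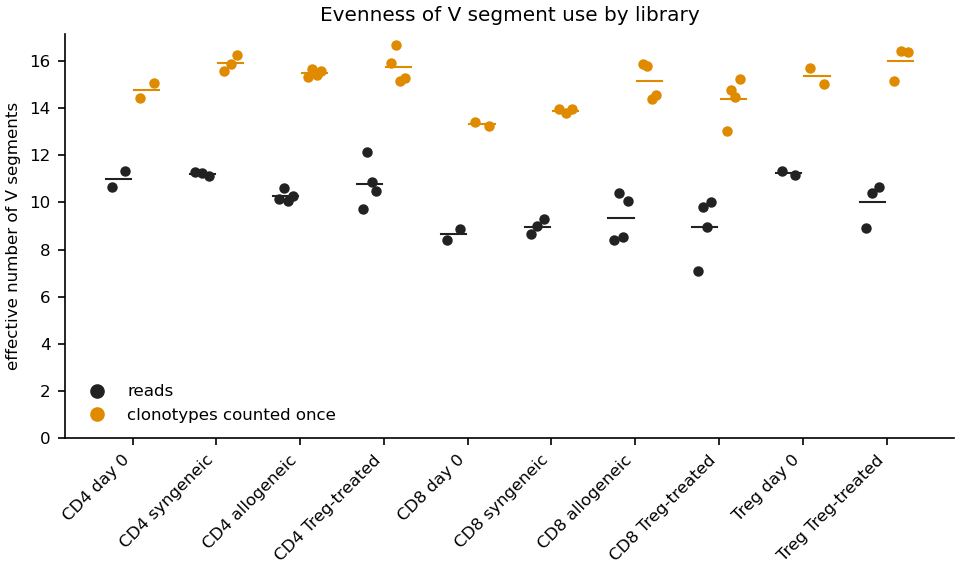
Effective number of V segments in each library, from reads (black) and from clonotypes counted once (orange), by cell type and arm, with lines for group means. CD8 libraries at day 0 and in syngeneic recipients lie between 8.42 and 9.28 by reads, below the CD4 libraries of the same arms.

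The V segments also differed in the J segments they were joined to. TRAJ segments are numbered downwards along the locus, so a high number lies close to the V array. With clonotypes counted once and at least 10 clonotypes per library, TRAV19 had a mean TRAJ number of 48.3 ± 1.95 (SD, n = 31), the highest of the 22. TRAV13-5 followed with 44.3 ± 7.02 (SD, n = 17) and TRAV7-6 with 41.4 ± 1.90 (SD, n = 31). TRAV19, TRAV13-5 and TRAV7-6 lie near the J end of the V array, and the lowest value of a segment with a position, 22.3 ± 1.77 (SD, n = 31), was that of TRAV7D-6 in the D block. TRAV14-3, at 22.4 ± 1.83 (SD, n = 27), lies near the J end as well and did not follow this order. Nor did TRAV16 (26.3 ± 2.12, SD, n = 10, all CD8 libraries) and TRAV13-4/DV7 (30.3 ± 2.94, SD, n = 31). Across the 21 segments with a position, start and mean TRAJ number had a Spearman rho of 0.54 and Pearson's r of 0.59, as a description, since segments share libraries and D and N names are uncertain. Without TRAV19 the rho was 0.46. The mean CDR3 string, as given in the table, ran from 12.9 ± 0.256 amino acids for TRAV8D-2 (SD, n = 31) to 14.9 ± 0.263 for TRAV16 (SD, n = 10). All 10 of these TRAV16 libraries are CD8 libraries. TRAV4 had 14.4 ± 0.289 (SD, n = 31) over all libraries and 14.6 in CD8 libraries.

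**Figure D5:**
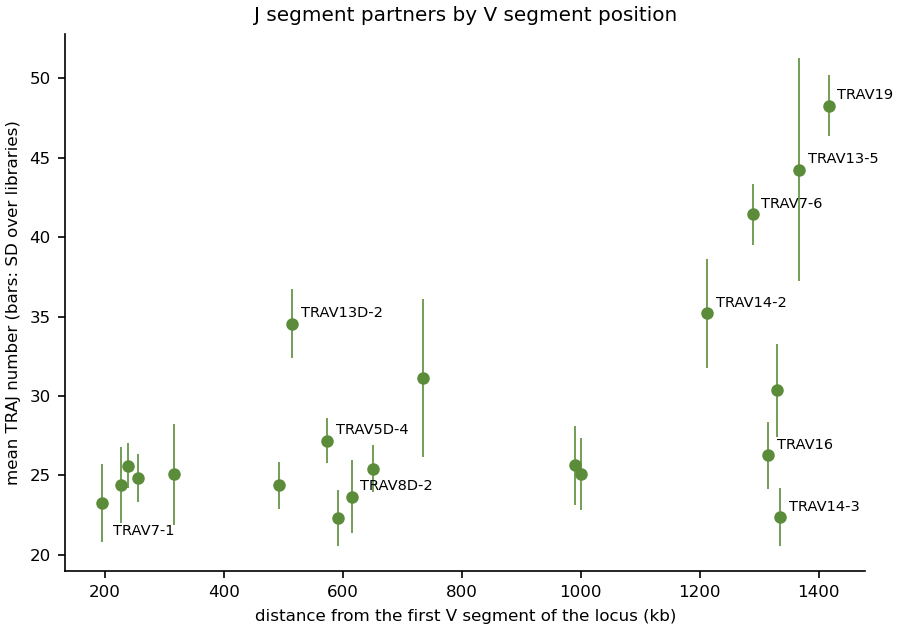
Mean TRAJ number of the clonotypes of each V segment, with the SD over libraries, against the distance of the segment from the start of the V array in kb. TRAV19, TRAV13-5 and TRAV7-6 at the J end have means of 41.4 to 48.3, and TRAV14-3 near them has 22.4.

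The share of TRAV19 over the 31 libraries was most like that of TRAV7D-3 (Spearman rho 0.42), followed by TRAV13-4/DV7 (0.36) and TRAV13N-1 (0.33). All 3 values are low, and they are a description over libraries of 10 groups.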

How the data were processed

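Sorted T cells of 31 libraries in 10 groups were measured by RNA sequencing and by nested PCR of TCR chains from the same full-length cDNA, per the labels' protocols. The TRA table holds read counts per clonotype, deposited by the authors with V name, J name and CDR3 amino acids. One repeated entry was merged, leaving 122907 clonotypes. For CD4 allogeneic replicate JL027-1 the deposited total of 30842 exceeds the sum of its own reads, 17270, which was used. The RNA table holds a signal, counts that the authors scaled between libraries, per the file headers, for 16741 genes. Its values are not whole and its depth is unknown. The submitters' processing notes name kallisto, DESeq2, FastQC and the build GRCm38. The TRB table was not used here.

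Reads were summed per V name and library. Names with a mean of at least 10 reads per library were tested with edgeR 4.0.16 (quasi-likelihood, library totals as offsets, 10-group model over all 31 libraries, Benjamini-Hochberg at 0.05). RNA was tested with limma 3.58.1 (trend, robust) on log2(value + 1), which understates changes of low rows. Evenness used exact permutation tests. DESeq2 1.42.0, R 4.3.3, Python 3.11.15, numpy 2.4.6, pandas 2.3.3 and scipy 1.17.1 were used. Both fits were tested on simulated data for CD8 against CD4 cells. The V fit called 91% of 2-fold and 100% of 4-fold changes, and 1.1% and 1.6% of unchanged segments. The RNA fit called 67% of log2 changes of 1 and 95% of changes of 2, and 0.05% of unchanged genes. Simulated V segments varied independently with a single dispersion of 0.16, so the constant sum of shares and expanded clonotypes were not covered. Floors for 0 reads are 3 reads of the total and cover counting error only.

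The members, lists and tests were chosen with earlier results of these data known. Named were the 10 members with the highest mean share and, per comparison, up to 5 called members per direction, and families with 3 or more members. TRAV14-2, TRAV6-3, TRAV13-4/DV7, TRAV13-5 and single libraries were named after their values were seen. CD4 and CD8 libraries with the same replicate name were treated as unpaired, since the labels do not say that they share an animal. The deviations of their V shares from the group means correlated above 0.1 in 9 of 13 pairs, from -0.556 to 0.502 (median 0.224). The day 0 pairs have the same value, 0.249, because 2 libraries deviate equally from their mean, so they are not separate. These values do not settle whether the libraries are paired.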

Additional observations from a re-analysis of the deposited data

Results flagged for a closer look

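Within the CD8 allogeneic group, replicate JL027-2 stood apart from the 3 other libraries in 2 of the 64 sets of 4 libraries examined (16 segments in 4 groups), about as many as chance gives or fewer, since about 1 set in 20 is flagged by chance. Its TRAV13D-2 share was 4.709% of reads, against 2.62% to 2.84% in the others. Its TRAV5D-4 share was 5.766%, against 7.03% to 7.21%, a small gap that stands out because the other 3 libraries lie close together.

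The CD8 against CD4 change of TRAV16 differed between allogeneic and syngeneic recipients by 2.425 on the log2 scale by the test of the difference itself (edgeR adjusted p 0.0141). TRAV16 rested on 2 to 28 reads per library in these groups. The call was lost with DESeq2 and without CD8 allogeneic replicate JL027-2, CD4 syngeneic replicate JL019-1 or CD4 syngeneic replicate JL019-2. It was lost as well with the replicate block given in the next section. The same difference for the TRAV16 family in RNA was 0.41 (limma adjusted p 0.788).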

How the results depend on the processing

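The CD8 against CD4 call of 11 segments was 10 to 13 when 1 library was left out, 6 with families pooled, and 0 within day 0 and 2 within syngeneic recipients, where fewer libraries enter. Over the segments named by calls, 426 of 459 alternative values kept direction and call, 33 lost the call (20 of them within day 0 or syngeneic recipients) and none reversed. For allogeneic against syngeneic CD8 cells, with 1 call, the number was 2 with DESeq2, 3 with limma on log2(percent + 0.1), 4 without a filter, 4 with clonotypes, 3 without the top clonotypes, 2 with families and 0 with only the groups compared, and 0 to 3 with 1 library left out. For its difference from CD4 cells, also 1 call, it was 0 with DESeq2, 2 without a filter, 4 with clonotypes, 2 without the top clonotypes, 3 with only the groups compared and 0 to 3 with 1 library left out. Comparisons with 0 calls gave, over their listed alternatives, at most: Treg against CD4 cells over both arms 2 (clonotypes), Treg after transplantation 1 (clonotypes), allogeneic against syngeneic CD4 cells 1 (only the groups compared), and Treg-treated against allogeneic CD8 cells 1 without a filter, 1 with families and 0 to 2 with 1 library left out. The cause of these changes was not tested.

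With libraries of the same prefix, arm and number taken as a replicate block, the CD8 against CD4 test called 10 segments. The test of the difference called 0 (from 1), and the RNA test of Treg against CD4 cells 6 Trav rows (from 3). The block changed no other count by over 1.5 times. In 7 of 11 CD8 libraries after transplantation the CD4 library of the same number was the best correlated one, so the numbers pair the libraries only as a hint.

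RNA Trav calls with 1 library left out were 36 to 56 (CD8 against CD4), 1 to 4 (Treg against CD4), 0 to 3 and 6 to 30 (allogeneic against syngeneic CD4 and CD8). With rows summed per family, chosen after seeing the data, they were 9, 1, 0 and 6 of 18. With 1 row of each equal set, also chosen after seeing the data, the CD4 number was 1. The effective number of V segments in Treg-treated against allogeneic CD8 cells was 0.255 with the Simpson index and -0.733 to 0.247 with 1 library left out, with no call in any setting. Libraries of 6870 reads limit rare segments: 1 read there is 0.0146% of the library.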
